A study of Brassica rapa subsp. pekinensis with 2 samples.

Results

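miR398 and miR408 are small plant RNAs that are known for their response to copper. The deposited list holds 3 mature forms of them, bra-miR398-3p, bra-miR398-5p and bra-miR408-5p, out of 34 miRNAs in all, and these were taken by name. The other listed miRNAs comprise 16 with a miRBase name and 15 predicted ones that carry only a number, such as novel_23. The list is the authors' selection of miRNAs that differed between both ploidy levels in these same libraries, so a difference in any listed miRNA is no independent evidence of one.

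Chinese cabbage (Brassica rapa subsp. pekinensis) plants were sampled at flowering for fully expanded petals. Autotetraploid petals (4x) gave 1 small RNA library and doubled haploid petals (2x) gave 1 library. An autotetraploid carries 4 sets of 1 genome, and a doubled haploid carries 2 identical sets made by doubling those of a haploid plant. Both kinds of plant were derived from the doubled haploid line FT and grew in the same conditions, with no other treatment named in the labels. The labels do not say how many plants were behind a library or whether petals were pooled. With 1 library per group no test between ploidy levels was possible, and ploidy, plant and library preparation cannot be told apart. Fewer cells that carry a miRNA and less of it per cell cannot be told apart either.

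A plant miRNA is cut from a hairpin precursor whose 2 arms give a 5p and a 3p form. Usually 1 arm is kept in the silencing complex and guides it to matching transcripts, while the other arm is mostly degraded. In Arabidopsis the transcription factor SPL7 raises miR398 and miR408 when copper is scarce. There the 3p form of miR398 directs cleavage of transcripts of copper/zinc superoxide dismutases and of their copper chaperone. The 3p form of miR408 acts on transcripts of the copper proteins plantacyanin and laccase. This lowers the demand for copper and spares it for plastocyanin, the copper protein of photosynthetic electron transport. The form of miR408 listed here is the 5p arm, for which no comparable role is given here, and bra-miR408-3p was not analysed here.

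Abundance was deposited per library as a value called TPM, which behaved as RPM, the reads of a miRNA per 1000000 reads of a normalising total. All 65 values above 0 were whole multiples of 1 step per library, within 0.01 of a read. That step, the worth of 1 read, was 2.21 RPM for the autotetraploid and 2.32 RPM for the doubled haploid library, which puts the normalising totals at 451878 and 431681 reads in that order. Which reads were counted in those totals is not given in the sources used here. Implied reads set the 95% intervals below, which are exact and cover counting error only.

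The listed arm of miR408 was the most abundant of the 34 miRNAs in both libraries. bra-miR408-5p stood at 64152 RPM in autotetraploid petals and 16007 RPM in doubled haploid petals, from 28989 and 6910 implied reads. Its Poisson counting intervals were 63416 to 64895 RPM in autotetraploid petals and 15632 to 16389 RPM in doubled haploid petals. These reads were 6.42% of the normalising total of the autotetraploid library and 1.60% of that of the doubled haploid library. In the autotetraploid library the next miRNA below it was bra-miR398-3p, at a 1.69-fold distance. In the doubled haploid library the next below was novel_23, at 12213 RPM, a 1.31-fold distance.

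bra-miR398-3p, the arm that guides cleavage in Arabidopsis, took the second place in autotetraploid petals and the third in doubled haploid petals. It stood at 38041 RPM in autotetraploid petals and 9551 RPM in doubled haploid petals, from 17190 and 4123 implied reads. That was 3.80% of the normalising total in autotetraploid petals and 0.955% in doubled haploid petals. The predicted miRNA novel_37 followed it in both libraries, 3.84-fold lower in the autotetraploid at 9905 RPM and 2.95-fold lower in the doubled haploid at 3234 RPM. In doubled haploid petals novel_23 came between both forms, 1.28-fold above bra-miR398-3p. Among the 19 miRBase-named miRNAs bra-miR398-3p was second in both.

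bra-miR398-5p, the opposite arm of the same hairpin, lay in the middle of the list. It stood at 345 RPM in autotetraploid petals and 99.6 RPM in doubled haploid petals, from 156 and 43 implied reads. Its Poisson counting intervals were 293 to 404 RPM in autotetraploid petals and 72.1 to 134 RPM in doubled haploid petals. It held place 14 of 34 in autotetraploid petals and place 13, shared with novel_14, in doubled haploid petals. Its neighbours in that order mostly lay within its counting interval. novel_103 stood 1.02-fold above it in the autotetraploid library, and novel_87 stood 1.02-fold below it in doubled haploid petals. Only bra-miR172c-3p, next below it in the autotetraploid library at 206 RPM, was set off by more, at 1.68-fold. Among the miRBase-named miRNAs it was number 5 in autotetraploid petals and number 6 in doubled haploid petals.

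**Figure D1:**
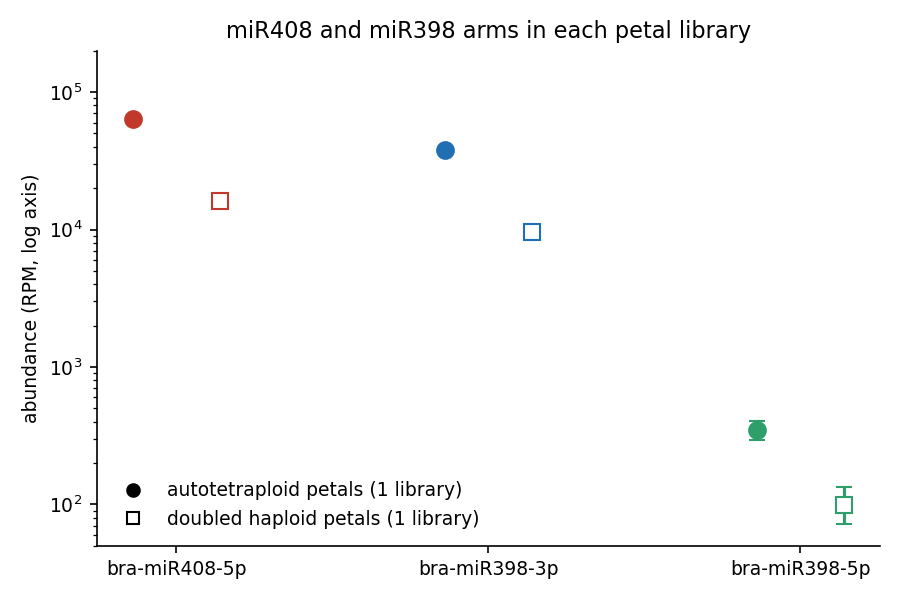
Abundance of the 3 copper-responsive miRNA forms in RPM on a log axis, with autotetraploid petals as filled circles and doubled haploid petals as open squares, 1 library each; bars are 95% Poisson counting intervals and are smaller than the symbols for bra-miR408-5p and bra-miR398-3p. Each form stood higher in the autotetraploid library, and bra-miR398-5p lay at 345 RPM against 99.6 RPM, far under the 3p arm.

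**Figure D2:**
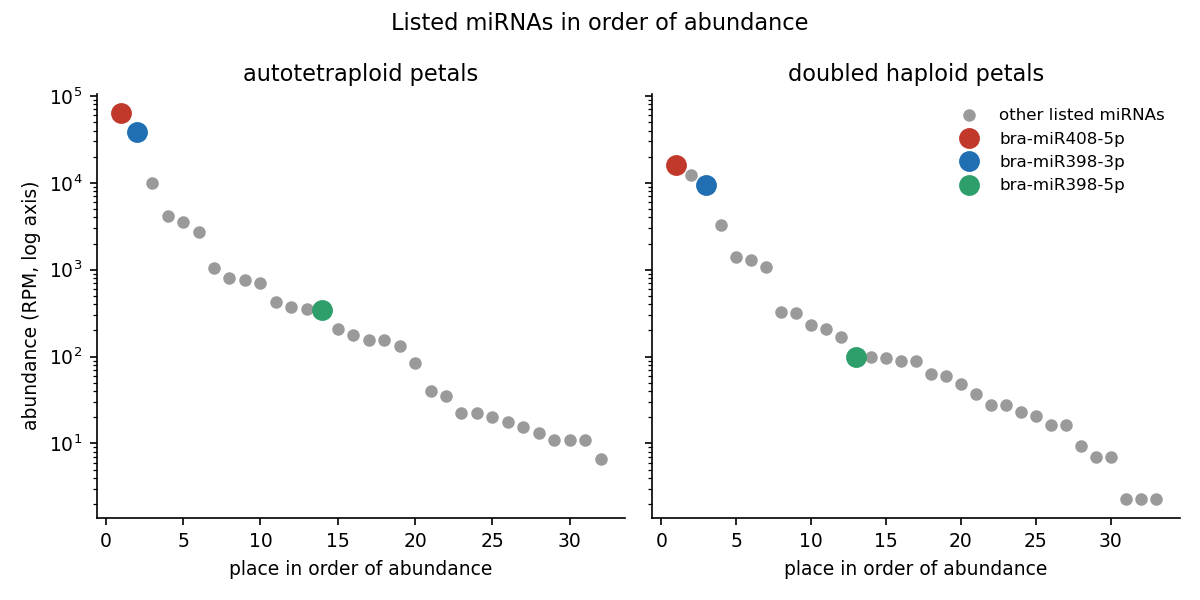
Listed miRNAs of each library ordered from the most to the least abundant, in RPM on a log axis, without those at 0 (2 in autotetraploid petals and 1 in doubled haploid petals); coloured points are bra-miR408-5p, bra-miR398-3p and bra-miR398-5p. The first pair stands clear of novel_37, the third point of the autotetraploid panel, whereas novel_23 lies between them in the doubled haploid panel.

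The 3 forms made up most of the listed total in each library, and more of it in autotetraploid petals. Together they summed to 102539 RPM in autotetraploid petals and 25658 RPM in doubled haploid petals, or 10.3% and 2.57% of the normalising totals of these libraries in that order. Their part of that listed sum was 79.8% in the autotetraploid library, with an exact binomial interval from 79.5% to 80.1%, and 54.8% in doubled haploid petals, from 54.1% to 55.4%. bra-miR408-5p alone held 49.9% in autotetraploid petals and 34.2% in doubled haploid petals. bra-miR398-3p held 29.6% in autotetraploid petals and 20.4% in doubled haploid petals. bra-miR398-5p held 0.269%, with an interval from 0.228% to 0.314%, in autotetraploid petals and 0.213%, from 0.154% to 0.286%, in doubled haploid petals, so that its shares overlapped within counting error.

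The total of all 34 miRNAs was 81627 RPM higher in the autotetraploid library, a net difference in which lower miRNAs offset higher ones. The difference of the 3 forms was equal to 94.2% of that net. The 31 other listed miRNAs summed to 25952 RPM in autotetraploid petals and 21205 RPM in doubled haploid petals, a ratio of 1.22. In that sum novel_23, the most abundant of the 31 in doubled haploid petals, was lower in the autotetraploid library. Without novel_23 the 30 others summed to 21820 RPM in autotetraploid petals and 8993 RPM in doubled haploid petals, a ratio of 2.43. Their difference of 12827 RPM was equal to 15.7% of the net. The share of the 3 forms was then 82.5% in autotetraploid petals and 74.0% in doubled haploid petals. Over the miRBase-named miRNAs alone it was 96.0% in autotetraploid petals and 91.9% in doubled haploid petals. The gap between both libraries was narrower on each of these bases.

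**Figure D3:**
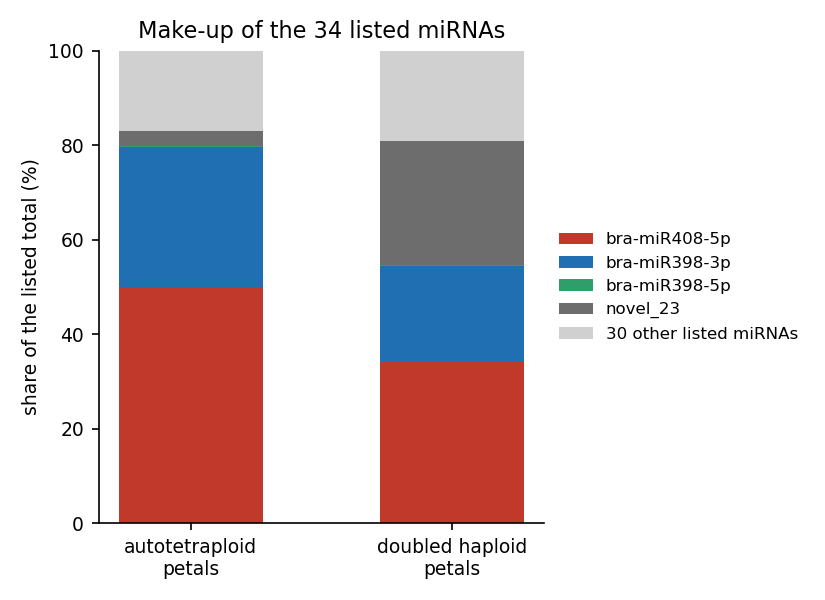
Share of the listed total, in percent, held by bra-miR408-5p, bra-miR398-3p, bra-miR398-5p, novel_23 and the 30 other listed miRNAs in the autotetraploid (left) and doubled haploid (right) petal library. bra-miR408-5p held 49.9% in autotetraploid petals and 34.2% in doubled haploid petals, and bra-miR398-5p, at 0.269% and 0.213% in that order, is barely visible.

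On the deposited RPM scale all 3 forms were more than 2-fold higher in autotetraploid petals. None of them was 2-fold higher when scaled to all 34 listed miRNAs, where their log2 ratios were 0.34 to 0.55, or to the 30 others without novel_23, where they were 0.51 to 0.72. On the 16 other miRBase-named miRNAs bra-miR398-5p alone, at 0.85, was under 2-fold. On the RPM scale, of all 34 listed miRNAs 24 were at least 2-fold higher there (70.6%) and 10 were at least 2-fold lower (29.4%). Every listed miRNA thus passed 2-fold in 1 direction, so passing it is no result about the 3 forms. A direction shared by 3 of 3 is not set apart from the list either. The ratio of autotetraploid to doubled haploid petals was 4.01 for bra-miR408-5p, with an interval from 3.90 to 4.11. For bra-miR398-3p it was 3.98, with an interval from 3.85 to 4.12. For bra-miR398-5p it was 3.47, with a wider interval from 2.46 to 4.98 that follows from its few reads. On that scale the intervals of all 3 lay wholly above 2-fold, as did those of 10 of the 34 listed miRNAs (29.4%). The 4-fold mark was passed by bra-miR408-5p but lay inside its interval, and 8 of the 34 (23.5%) passed it. The authors' deposited table gives log2 fold changes of 2.0028 for bra-miR408-5p, 1.9938 for bra-miR398-3p and 1.7932 for bra-miR398-5p. It lists a q-value of 0 for bra-miR408-5p and bra-miR398-3p and of 4.54e-27 for bra-miR398-5p. Those q-values compare 2 libraries and carry no spread between plants.

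The size of the ratio did not place these forms at the top of the list. In the order of ratios bra-miR408-5p was number 8, bra-miR398-3p number 9 and bra-miR398-5p number 12 of 34. The median log2 ratio was 1.99 for the 3 forms, against 1.38 over the 31 listed miRNAs that were above 0 in both libraries, these 3 included. Of the 7 miRNAs with a higher ratio than bra-miR408-5p, 4 rested on 10 or fewer implied reads in the autotetraploid library. The other 3 were the predicted miRNAs novel_81, novel_14 and novel_91. What set bra-miR408-5p and bra-miR398-3p apart from those 7 was abundance: novel_81, the most abundant of them in the autotetraploid library, stood at 1036 RPM there and 229 RPM in doubled haploid petals.

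**Figure D4:**
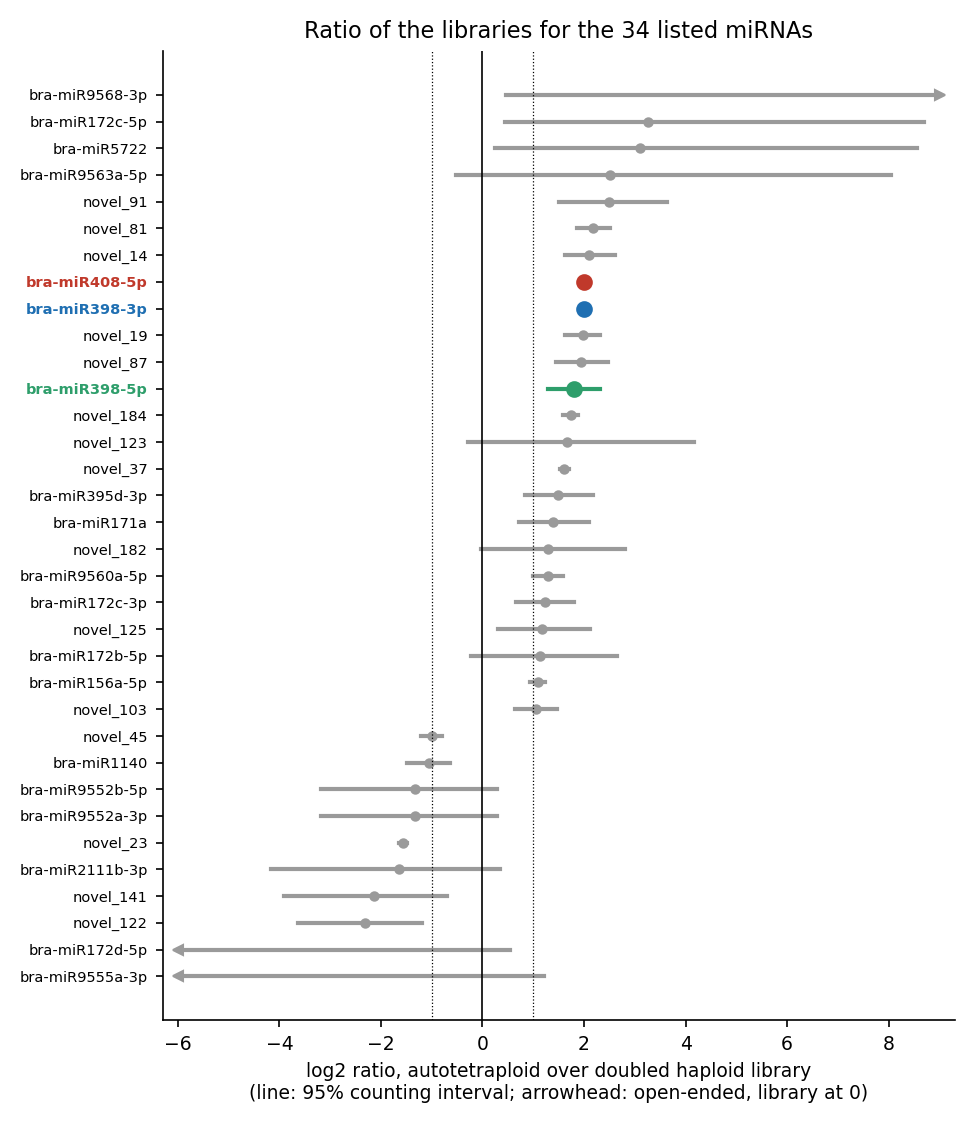
Log2 ratio of the autotetraploid over the doubled haploid library for each of the 34 listed miRNAs, with 95% counting intervals as lines, arrowheads where a library was at 0, a solid line at a ratio of 1 and dotted lines at 2-fold either way. bra-miR408-5p, bra-miR398-3p and bra-miR398-5p, in colour, lie among the higher miRNAs, at ratios of 4.01, 3.98 and 3.47 before the log, and no point lies between the dotted lines, since the authors selected miRNAs that differed.

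Ratios between miRNAs of the same library do not depend on how that library was scaled, so they were compared next. The proportion of bra-miR408-5p to bra-miR398-3p was almost the same in both libraries. There were 1.69 RPM of bra-miR408-5p for each RPM of bra-miR398-3p in autotetraploid petals and 1.68 in doubled haploid petals. The first proportion over the second was 1.01, with an exact interval from 0.964 to 1.05. By family name the 2 forms match different genes, MIR408 and MIR398 in the RefSeq annotation CAAS_Brap_v3.01. From which genes the reads came was not tested.

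Within the miR398 hairpin the 3p arm outnumbered the 5p arm by 110 to 1 in autotetraploid petals and by 95.9 to 1 in doubled haploid petals. The 5p arm held 0.899% of the reads of both arms in the autotetraploid library, with an interval from 0.764% to 1.05%, and 1.03% in doubled haploid petals, from 0.748% to 1.39%. The autotetraploid interval lay inside the doubled haploid one. The proportion of 3p to 5p in the autotetraploid over that in doubled haploid petals was 1.15, with an interval from 0.799 to 1.62. That interval is wide, with 43 reads of the 5p arm in doubled haploid petals. The smallest shift in arm use that could be seen was not computed. Both arms summed to 38387 RPM in autotetraploid petals and 9651 RPM in doubled haploid petals, a ratio of 3.98. bra-miR172c was the only other hairpin with both arms listed. Its 5p arm held 9.71% of the reads of both arms in the autotetraploid library (10 of 5p and 93 of 3p) and 2.56% in doubled haploid petals (1 of 5p and 38 of 3p), with intervals that overlapped.

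Set against novel_23 and bra-miR156a-5p, which were chosen after their values were seen, the proportions moved. bra-miR408-5p was 15.5 times as abundant as novel_23 in autotetraploid petals and 1.31 times in doubled haploid petals, which is a factor of 11.8 with bounds of 11.2 and 12.6. It was 23.5 times as abundant as bra-miR156a-5p, of the family that targets SPL transcription factors, in autotetraploid petals and 12.5 times in doubled haploid petals. That was a factor of 1.89 with an interval from 1.70 to 2.10. bra-miR398-3p gave factors of 11.8 against novel_23 and 1.88 against bra-miR156a-5p. As novel_23 and bra-miR156a-5p were chosen with their values known, these factors only restate the ratios of the miRNAs involved. bra-miR156a-5p too was higher in the autotetraploid library, but by less than both copper-responsive forms. Other abundant miRNAs differed in this. novel_37, more abundant than bra-miR156a-5p in both libraries, lay nearer to both forms, at a ratio of autotetraploid to doubled haploid petals of 3.06. novel_45, at a ratio of 0.499, lay further off.

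The miRNAs with the most similar ratio were all predicted ones. Likeness was the absolute difference between a log2 ratio and the median of the 3 forms over the 2 libraries, among listed miRNAs that reached 100 RPM in either library. The 5 nearest were novel_19, novel_87, novel_14, novel_81 and novel_184, at distances of 0.024, 0.051, 0.11, 0.18 and 0.26 (log2). novel_19, the nearest, stood at 808 RPM in autotetraploid petals and 206 RPM in doubled haploid petals, at a ratio of 3.92 whose lower bound was 3.10. novel_184, the most abundant of the 5, stood at 3585 RPM in autotetraploid petals and 1077 RPM in doubled haploid petals. Since these miRNAs were picked for their ratio, their proportions to bra-miR408-5p were bound to be close in both libraries. Against novel_19, novel_87, novel_14 and novel_81 the factors for bra-miR408-5p were 1.02, 1.04, 0.935 and 0.887 in that order. Their intervals all held 1. For bra-miR408-5p against novel_184, the least alike and most abundant of the 5, the factor was 1.20. Its interval, from 1.08 to 1.34, did not hold 1. A similar proportion of bra-miR408-5p in both libraries was therefore not particular to bra-miR398-3p. With 2 libraries only, likeness in 1 ratio is a weak description, and the sequences of the predicted miRNAs were not analysed here.

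**Figure D5:**
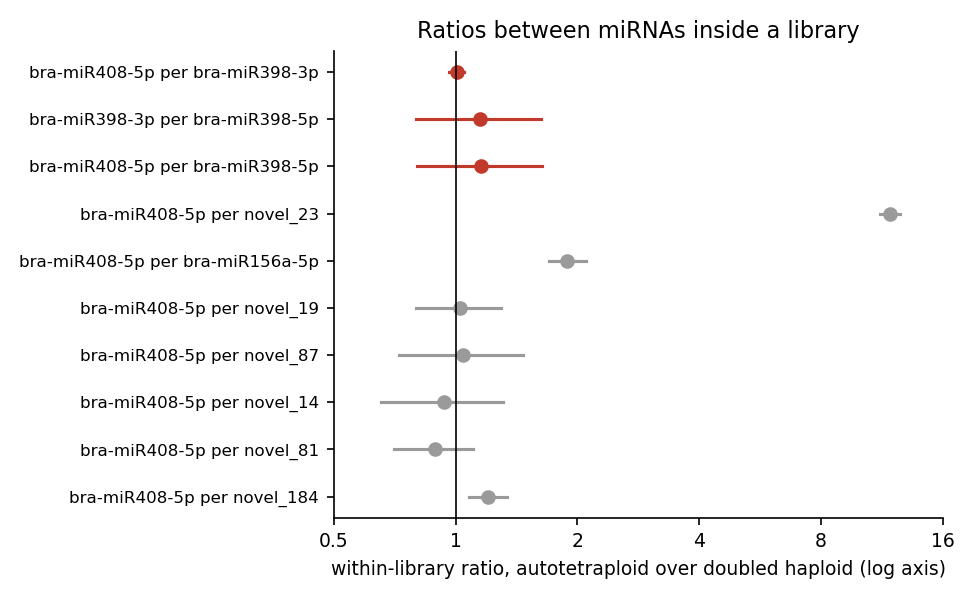
Proportion between a pair of miRNAs in the autotetraploid over the same proportion in doubled haploid petals, on a log axis, with exact 95% counting intervals; red marks pairs among the 3 copper-responsive forms, grey marks bra-miR408-5p against other miRNAs, the last 5 of which were picked for a similar ratio. The red pairs lie between 1.01 and 1.16 with intervals that hold 1, and bra-miR408-5p against novel_23 lies at 11.8. Of the last 5, only the pair with novel_184 has an interval that does not hold 1.

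The other copper miRNA families were looked up by name. Of 5 families, miR397, miR398, miR408, miR857 and miR1444, only miR398 and miR408 were in the list, with 3 of 3 listed forms at least 2-fold higher on the RPM scale in the autotetraploid library, as were 70.6% of the whole list. miR397 and miR857 are known in Arabidopsis for acting on laccases, and miR1444 in poplar for acting on polyphenol oxidases. They were not analysed here, nor were the transcripts of the copper proteins. The 3 miRNA families looked up as found in Arabidopsis pollen, miR845, miR774 and miR780, had 0 members in the list, so carry-over of pollen was not tested, and no miRNA marker of petals was at hand to check the labelled tissue.

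The ratio of bra-miR408-5p and bra-miR398-3p stayed above 1 under 4 other scalings, but its size did not hold. The 31 other listed miRNAs as the base put bra-miR408-5p at a log2 ratio of 1.71 and bra-miR398-3p at 1.70. The 16 other miRBase-named miRNAs put them at 1.06 and 1.05 in that order. The 30 others without novel_23 put them at 0.72 for each. All 34 miRNAs as the base put bra-miR408-5p at 0.55 and bra-miR398-3p at 0.54, with their own reads in the base. The base itself was higher in the autotetraploid library in each case, by 0.29, 0.94, 1.28 and 1.46 (log2) in the order given. bra-miR398-5p ranged from 0.34 on all 34 miRNAs, where its shares overlapped within counting error, to 1.50 on the 31 others. Only miRNAs selected for a difference were analysed here, and no base that could be taken as equal in both libraries was at hand.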

How the data were processed

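Small RNA of 1 autotetraploid and 1 doubled haploid petal library was compared. TRIzol extraction and NEBNext Ultra library kits were used, per the labels' protocols. Per the submitters' processing notes Bowtie was used, with no version or role given, and neither the build nor the counting is given in the sources used here. The authors deposited, for 34 selected miRNAs, a value called TPM that behaves as RPM. They also deposited a log2 fold change, the log2 of autotetraploid over doubled haploid RPM with 0.5 for a 0, and per the file headers p-values and Storey q-values. Recomputed log2 fold changes differed from the deposited ones by at most 5e-05.

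Implied reads were RPM divided by the largest step of which all values were whole multiples. Ratios used no pseudocount, with Clopper-Pearson intervals on the split of reads; proportions between miRNAs used exact conditional intervals. A miRNA at 0 in 1 library counted as past any fold. PCR reads without molecular identifiers are not independent molecules. The members and lists were chosen with earlier results of these data known. Named were the 3 forms, their neighbours in abundance, the 5 nearest in ratio and hairpins with both arms; novel_23 and bra-miR156a-5p as bases of comparison, and the miRNAs with a higher ratio than bra-miR408-5p, were chosen after their values were seen. RefSeq genes matched all 3 forms by family name only. No coordinates are given, as the build is unknown. Alternatives covered the pseudocount, low values, fold and scaling. Python 3.11.15, numpy 2.4.6, scipy 1.17.1, pandas 2.3.3 and matplotlib 3.10.9 were used.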

Additional observations from a re-analysis of the deposited data

How the results depend on the processing

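The ratios of the 3 forms stayed within their counting intervals with a pseudocount of 1 or 10, and arm shares were equal from RPM and implied reads. Scaling moved the log2 ratios, and the base alone sets the shift. For bra-miR408-5p, bra-miR398-3p and bra-miR398-5p in that order they were 1.06, 1.05 and 0.85 on the 16 other miRBase-named miRNAs, 0.55, 0.54 and 0.34 on all 34, and 0.72, 0.72 and 0.51 on the 30 others without novel_23, a base chosen after seeing the data. On the 31 others bra-miR408-5p moved to 1.71 and bra-miR398-3p to 1.70, while bra-miR398-5p stayed inside its interval. No point value changed direction, but on all 34 the shares of bra-miR398-5p overlapped within counting error. The 2-fold call ended for all 3 forms on all 34 and on the 30 others, and for bra-miR398-5p on the 16. The share of the 3 forms was 96.0% in autotetraploid petals and 91.9% in doubled haploid petals over miRBase-named miRNAs, and 82.5% and 74.0% in that order without novel_23. Among miRBase-named miRNAs bra-miR398-5p was number 5 in autotetraploid petals and 6 in doubled haploid petals, and bra-miR398-3p number 2 in doubled haploid petals. The count at least 2-fold higher, 24, was 8 at 4-fold. The count at least 2-fold lower, 10, was 4 with a pseudocount of 10, 3 at 100 RPM or more and 4 at 4-fold. With a 0 set at a floor of 3 reads, also chosen after seeing the data, the counts were 24 and 8. Of the 3 forms bra-miR398-5p had the fewest implied reads, 156 in autotetraploid petals and 43 in doubled haploid petals, and the widest interval. No replicate could be left out, with 1 library per group. No paired analysis was possible because there was only 1 library per ploidy level.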
